A study of Homo sapiens with 32 samples.

Results

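Re-expression of SETD2 in a 786-O knockout clone left 4894 m6A regions that differed in both libraries from the wild-type (WT) line. The peaks of 4 lists, 2 of 786-O WT and 2 of the rescued line SETD2KO-1R, were merged wherever they shared at least 1 bp, which gave 60211 regions. A region was a member if both libraries of 1 line called it and neither library of the other did. WT alone called 3260 regions (WT-only, 5.41% of all merged regions) and SETD2KO-1R alone called 1634 (SETD2KO-1R-only, 2.71%). The 16 lists of the whole series merged into 99514 regions, but only these 4 lists defined members.

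The study profiled m6A by MeRIP-seq, in which RNA fragments pulled down with an antibody to m6A are compared with the input RNA, in 786-O, an established line from a clear cell renal cell carcinoma (ccRCC), and in RPTEC, immortalized cells of the renal proximal tubule. Each was present as WT, as the clones SETD2KO-1 and SETD2KO-2 inactivated for SETD2 with CRISPR/CAS9, and as SETD2KO-1R, with 2 immunoprecipitation libraries per line and no treatment. SETD2KO-1R was 1 clone, derived from the SETD2KO-1 clone after a FLAG-tagged full-length SETD2 transgene was introduced. It thus carried the edited SETD2 alleles of its parent and 2 rounds of clonal derivation that the WT line did not, so that the transgene and the history of the clone cannot be told apart. No source says whether the 2 libraries of a line came from separate cultures, and their spread may be technical.

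SETD2 is the enzyme that places trimethylation on lysine 36 of histone H3 along transcribed genes, and its gene is often inactivated in ccRCC. N6-methyladenosine is written on RNA by a complex built around METTL3 and METTL14, most often at adenosines in a GGAC-like context, with many sites in long internal exons, near stop codons and in 3′ untranslated regions. METTL14 has been reported to bind the histone mark of SETD2, which is why the return of SETD2 could be asked to restore the m6A pattern.

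The 2 WT lists held 31516 and 36401 peaks and the 2 SETD2KO-1R lists held 32016 and 25710, the last being the shortest of the 8 lists of 786-O. On the log2 scale the number of peaks was 0.24 lower in SETD2KO-1R (15.05 ± 0.15 in WT and 14.81 ± 0.22 in SETD2KO-1R, SD, n = 2), a difference within the spread (exact permutation test, two-sided, p = 0.667). With 2 libraries against 2, no such test can give a p below 0.333. The read depth behind a list is unknown, because a list gives positions and scores of called peaks and no counts. A missing peak may mean less m6A or less RNA of that gene, and these cannot be told apart without the input reads, which were not analysed here. Of 14 marker genes of renal epithelium or ccRCC, 11 held a peak in all 8 libraries of 786-O, among them PAX8 and PAX2. The others were CDH16, with a peak in 2 libraries, and CA9 and EPCAM, with none. PECAM1, CDH5 and KDR of endothelium and ALB and APOA1 of hepatocytes also held none. Of markers of other cells, MYH11 of smooth muscle and CD68 of leukocytes also held a peak in all 8, ACTA2 of smooth muscle in 4 and MAP2 of neurons in 2.

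Members were a small part of a pattern dominated by regions seen once. Of the merged regions, 10499 were called in all 4 libraries, 16127 in 1 WT library alone and 13059 in 1 SETD2KO-1R library alone. A further 7053 were called in 1 library of each line. The overlap between lists, as the shared share of their combined length, was 0.402 for the WT pair and 0.317 for the SETD2KO-1R pair, against 0.278 to 0.382 for the 4 pairs across lines. Replicate 1 of SETD2KO-1R thus overlapped more with either WT library than with its own replicate.

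Peak length bore on the balance of the 2 directions. The shortest peak was 264 and 236 bp in the WT lists but 288 bp in both SETD2KO-1R lists, so a short region could be called in WT alone. With peaks of at least 288 bp in every list, 1820 regions were WT-only and 2397 SETD2KO-1R-only, which turned the direction. This cut took peaks from the WT lists alone, so a shift toward SETD2KO-1R was built in. With the 25710 highest-scoring peaks of each list the counts were 2163 and 1771. Without replicate 2 of SETD2KO-1R, where 1 library alone stands for its line, there were 0.532 WT-only regions for each SETD2KO-1R-only region, against 2.00 with all 4 libraries. Leaving out a library lets 1 call define its line and raises the count of that line by construction. That ratio therefore cannot decide the direction. The direction of the excess therefore depended on the lists, and what follows describes which regions differed.

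The score of a peak, a number from the peak caller, was turned into a rank within its list, with 100 for the highest. The median of the mean rank over the 2 calling libraries was 40.5 for WT-only and 37.7 for SETD2KO-1R-only regions, below the 66.6 of regions called in all 4. Regions just outside the rule, called in both libraries of 1 line and 1 of the other, had median ranks of 53.7 (2 WT and 1 SETD2KO-1R, 6001 regions) and 46.9 (1 WT and 2 SETD2KO-1R, 2578 regions). Median lengths were 442 bp for WT-only and 525 bp for SETD2KO-1R-only regions.

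Some members covered the start of a gene, and 6 of the windows that lay whole inside a member region are shown. They were picked after their values were seen, as examples with and without GGACT and with different calls in the knockouts, and do not represent the rest, nor the highest ranks, since the region over NDUFAF3 had a mean rank of 60.1. They come from RefSeq (GRCh38.p14) and run from 250 bases before the annotated start to 30 after it, 5′ to 3′ on the strand of the gene. Capitals mark GGACT, a frequent form of the m6A context, searched on that strand. The first 3 windows lay in WT-only regions. TRMT112 encodes a partner of several methyltransferases, PIP4K2B a phosphoinositide kinase, and NDUFAF3 an assembly factor of respiratory complex I.
TRMT112, chr11:64317961-64318240, minus strand: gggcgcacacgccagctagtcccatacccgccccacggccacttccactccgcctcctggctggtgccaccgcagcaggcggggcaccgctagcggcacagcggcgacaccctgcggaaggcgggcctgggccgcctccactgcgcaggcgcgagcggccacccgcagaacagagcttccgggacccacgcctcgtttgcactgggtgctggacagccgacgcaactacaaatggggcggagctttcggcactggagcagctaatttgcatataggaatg
PIP4K2B, chr17:38799527-38799806, minus strand: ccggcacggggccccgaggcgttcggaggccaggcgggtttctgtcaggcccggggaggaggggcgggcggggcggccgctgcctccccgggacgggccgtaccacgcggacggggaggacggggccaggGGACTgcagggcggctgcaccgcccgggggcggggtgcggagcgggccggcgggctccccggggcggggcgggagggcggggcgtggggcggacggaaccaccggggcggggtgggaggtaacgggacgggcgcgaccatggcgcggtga
NDUFAF3, chr3:49021871-49022150, plus strand: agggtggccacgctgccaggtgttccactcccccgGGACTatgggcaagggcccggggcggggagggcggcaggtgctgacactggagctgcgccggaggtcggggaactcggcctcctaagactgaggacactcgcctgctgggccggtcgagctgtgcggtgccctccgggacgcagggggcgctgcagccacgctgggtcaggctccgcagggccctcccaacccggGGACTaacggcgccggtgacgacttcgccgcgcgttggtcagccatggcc
The other 3 lay in SETD2KO-1R-only regions. TOB2 encodes an antiproliferative protein that binds the mRNA deadenylation machinery, MACROH2A1 a variant histone, and POU3F3 a transcription factor of the developing nephron and brain.
TOB2, chr22:41446772-41447051, minus strand: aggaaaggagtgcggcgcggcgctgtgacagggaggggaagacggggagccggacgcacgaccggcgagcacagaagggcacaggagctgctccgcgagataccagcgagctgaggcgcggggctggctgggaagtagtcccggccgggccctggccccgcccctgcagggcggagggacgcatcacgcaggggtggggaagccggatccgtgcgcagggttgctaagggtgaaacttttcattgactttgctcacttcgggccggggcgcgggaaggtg
MACROH2A1, chr5:135399202-135399481, minus strand: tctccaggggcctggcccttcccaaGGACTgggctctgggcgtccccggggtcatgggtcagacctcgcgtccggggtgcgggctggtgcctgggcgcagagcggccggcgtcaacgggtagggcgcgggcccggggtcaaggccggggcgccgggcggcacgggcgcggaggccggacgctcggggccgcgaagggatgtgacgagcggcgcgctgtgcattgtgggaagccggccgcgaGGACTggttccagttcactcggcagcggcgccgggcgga
POU3F3, chr2:104853865-104854144, plus strand: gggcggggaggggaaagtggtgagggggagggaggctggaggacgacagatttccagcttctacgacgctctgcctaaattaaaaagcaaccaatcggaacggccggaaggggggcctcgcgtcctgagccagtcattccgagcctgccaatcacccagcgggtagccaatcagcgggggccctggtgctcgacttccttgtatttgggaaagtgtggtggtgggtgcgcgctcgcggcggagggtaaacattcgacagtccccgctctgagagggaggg
The region over the TRMT112 window ranked at 96.8 and 98.3 in the 2 WT libraries, was called in both SETD2KO-1 libraries and 1 SETD2KO-2 library, and was missing from SETD2KO-1R. That over TOB2 ranked at 94.7 and 95.8 in SETD2KO-1R and was called in all 4 knockout libraries. That over MACROH2A1 ranked at 91.3 and 89.6 and was called in no knockout library. Sequence before the start is not part of the annotated transcript, and the lists hold no strand. On the strand of the gene GGACT stood in 24.1% of the 22198 start windows of protein-coding genes, in 11 of the 34 held whole by WT-only regions and in 11 of the 56 held whole by SETD2KO-1R-only regions. On the other strand it stood in 24.7% of all windows, in 7 of the 34 and in 17 of the 56.

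Whether the members came from the parental clone was read from the knockout libraries, which the rule did not use. Of the 1634 SETD2KO-1R-only regions, 419 (25.6%, Wilson 95% interval 23.6 to 27.8) were called in both SETD2KO-1 libraries, 518 in 1 and 697 (42.7%, 40.3 to 45.1) in neither. Of the 3260 WT-only regions, 1206 (37.0%, 35.4 to 38.7) were called in neither SETD2KO-1 library and 974 (29.9%) in both. In both directions, then, regions with the state of the parental clone and regions without it stood side by side. The 7053 regions called in 1 library of each line, which have the same number of calls, gave like values, with 27.4% called in both SETD2KO-1 libraries and 39.7% in neither. These shares moved with the libraries that defined the members. The share of SETD2KO-1R-only regions called in both SETD2KO-1 libraries was 9.1% without SETD2KO-1R replicate 1 and 14.7% without its replicate 2, but 33.1% without WT replicate 1 and 38.2% without WT replicate 2. That of WT-only regions called in neither was 21.8% and 32.0% without either SETD2KO-1R library and 59.0% and 58.9% without either WT library. Intervals here cover counting error over regions alone.

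Both knockout clones together divided the members further. No knockout library called 755 WT-only regions (23.2%), which were missing from all 6 libraries of the 3 clonal lines, and all 4 called 395 (12.1%), which were missing from SETD2KO-1R alone. No knockout library called 440 SETD2KO-1R-only regions (26.9%), and all 4 called 191 (11.7%), which every clonal library held and WT lacked. Beside these stand the 7053 regions called in 1 library of each line, which have the same number of calls. No knockout library called 20.3% of them, and all 4 called 10.0%. Among the 10499 regions called in all 4 defining libraries, all 4 knockout libraries called 72.9%. The share of SETD2KO-1R-only regions called was 41.5% ± 1.21 in SETD2KO-1, the parent, and 40.9% ± 7.62 in SETD2KO-2, an independent clone (SD, n = 2). The difference of 0.551 percentage points was within the spread (exact permutation test, two-sided, p = 1). The same held for WT-only regions, at 46.4% ± 1.04 and 42.1% ± 14.01 (exact permutation test, two-sided, p = 1).

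**Figure D1:**
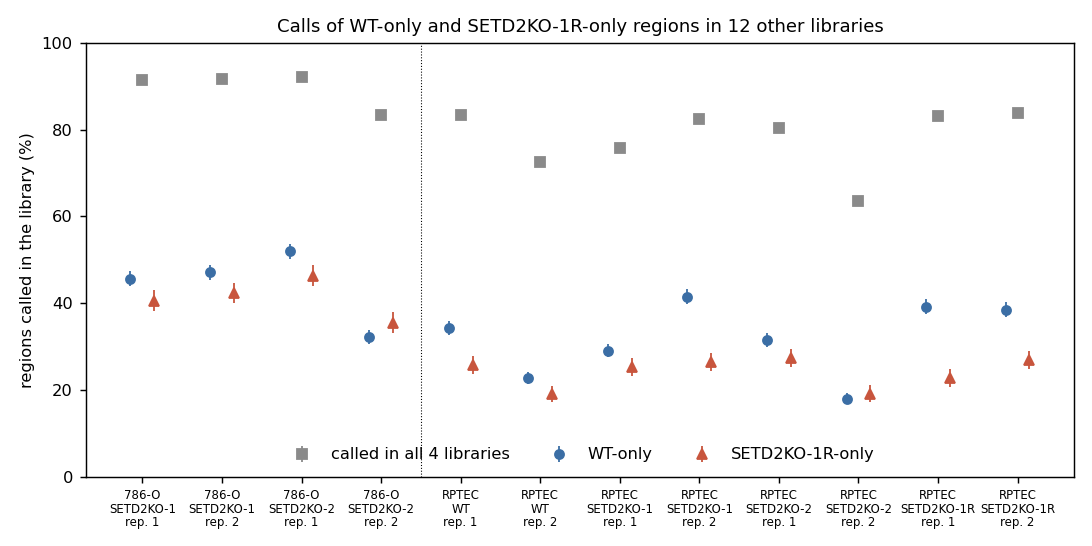
The vertical axis gives the share of regions called in each of 12 libraries that did not define the members, with Wilson 95% intervals as bars, for WT-only regions (circles), SETD2KO-1R-only regions (triangles) and regions called in all 4 defining libraries (squares). WT-only regions lay at 18.04 to 52.0% and SETD2KO-1R-only regions at 19.03 to 46.3%, all under the squares, which began at 63.5%.

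In RPTEC the 2 kinds of member differed. WT-only regions were called in 31.9% ± 8.29 of cases and SETD2KO-1R-only regions in 24.1% ± 3.38 (SD, n = 8 libraries), a difference (SETD2KO-1R-only minus WT-only) of -7.81 percentage points (SD 6.22) that ran in this direction in 7 of 8 libraries (exact sign-flip permutation test, two-sided, p = 0.0156). The exception was replicate 2 of RPTEC SETD2KO-2, the library with the fewest peaks, with 18.04% of WT-only and 19.2% of SETD2KO-1R-only regions. With the 4 RPTEC lines as units the direction held in all 4 and the exact p was 0.125, the smallest that 4 units allow. With the upper 50% of each list the difference was -6.99 points and did not pass (exact sign-flip permutation test, p = 0.0703). At least 1 RPTEC library called 75.9% of WT-only and 63.1% of SETD2KO-1R-only regions, beside 74.0% of regions called in 1 library of each line. No RPTEC library called 786 WT-only and 603 SETD2KO-1R-only regions. The direction turned without either WT library, when regions called in 1 WT library counted as WT-only. SETD2KO-1R-only regions were then called more often, by 14.7 points without WT replicate 1 and 12.3 without WT replicate 2 (exact sign-flip permutation test, p = 0.0078 in both).

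The location of the members also differed by direction. The midpoint lay in a protein-coding gene for 87.1% of WT-only regions (Wilson 86.0 to 88.3) and 71.9% of SETD2KO-1R-only regions (69.7 to 74.0), against 84.4% of all merged regions and 89.0% of those called in all 4. Another kind of gene alone held 7.12% and 11.9%, beside 7.36% of all merged regions, and no gene held 5.74% and 16.2%, beside 8.25%. SETD2KO-1R-only regions outside all genes numbered 264, against 187 WT-only ones. Whole libraries leaned the same way. Peaks outside all genes made up 6.23% ± 0.014 of a WT list and 8.55% ± 0.198 of a SETD2KO-1R list (SD, n = 2), and peaks in protein-coding genes 87.2% ± 0.205 and 83.9% ± 0.226. The groups did not overlap in either, with the smallest p the design allows (exact permutation test, two-sided, p = 0.333, and 0.444 after Benjamini-Hochberg adjustment over 4 measures). The 4 knockout libraries of 786-O lay on the side of SETD2KO-1R in both, with 8.15 to 10.8% of peaks outside all genes and 80.6 to 84.7% in protein-coding genes, so these shares set WT apart from all 6 clonal libraries. Within 200 bp of the 3′ end of a protein-coding gene lay 0.260% ± 0.0089 of WT and 0.247% ± 0.035 of SETD2KO-1R peaks (exact permutation p = 1), and 2 WT-only and 5 SETD2KO-1R-only regions.

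**Figure D2:**
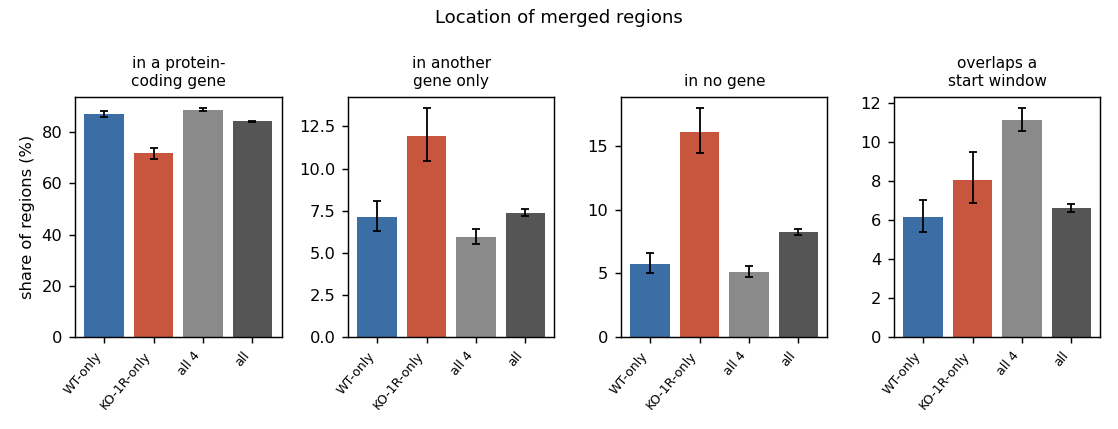
Bars give the share of WT-only regions, SETD2KO-1R-only regions (KO-1R-only), regions called in all 4 libraries and all merged regions by the place of their midpoint, and in the last panel by overlap with a start window, with Wilson 95% intervals. No gene held 16.2% of SETD2KO-1R-only and 5.74% of WT-only regions.

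Within protein-coding genes of known strand, 30.6% of SETD2KO-1R-only and 28.5% of WT-only midpoints fell in the last 20% of the gene. Both were near the 28.9% of all merged regions, while regions called in all 4 had 40.0%. The first 20% held 21.8% and 23.8%, beside 21.9% over all merged regions. A start window was overlapped by 8.08% of SETD2KO-1R-only regions (6.85 to 9.50) and 6.17% of WT-only regions (5.39 to 7.04). The share was 6.62% over all merged regions, which lay inside the WT-only interval, and 11.1% for regions called in all 4. A whole start window was held by 49 SETD2KO-1R-only and 33 WT-only regions. The genes around WT-only midpoints were the longest, with a median of 68.4 kb against 56.0 kb for SETD2KO-1R-only regions. The median was 61.6 kb for all merged regions and 45.7 kb for regions called in all 4. Of the 2841 WT-only regions in a protein-coding gene, 2490 (87.6%) lay in a gene with a SETD2KO-1R peak elsewhere, and of the 1175 SETD2KO-1R-only regions in such a gene, 993 (84.5%) lay in a gene with a WT peak. Over all members the nearest peak of the other line stood at a median distance of 4304 bp for WT-only and 4755 bp for SETD2KO-1R-only regions.

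Among the 12 WT-only regions with the highest ranks were those of HSP90AA1 (a cytosolic chaperone), YWHAE (a 14-3-3 protein), MYH9 (non-muscle myosin), RPL8 (a ribosomal protein) and CAPRIN1 (a stress granule protein). Of these, HSP90AA1, YWHAE, RPL8 and CAPRIN1 lost the status with a minimum peak length of 288 bp, and a SETD2KO-1R peak stood 222 bp from the region of MYH9, 401 bp from that of YWHAE and 300 bp from that of RPL8. The WT-only region of APLP2, an amyloid precursor-like protein, on chromosome 11 from 130121928 to 130122347, ranked at 99.9 and 99.8 in the WT libraries and was called in no library of the other 3 lines. That of NDUFA13, a subunit of respiratory complex I, ranked at 99.4 and 99.7 in WT and was likewise called in no clonal library, but a SETD2KO-1R peak stood 314 bp away. Of the 12 regions, 7 in all lost the status with that minimum length and 5 had a SETD2KO-1R peak within 500 bp.

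The 12 top SETD2KO-1R-only regions could not lose their status with the minimum length, which removed no SETD2KO-1R peak. RNF168, a ubiquitin ligase of the DNA damage response, held 1 on chromosome 3 from 196487509 to 196487861, with ranks of 99.9 and 99.6 in SETD2KO-1R and 99.8, 99.3, 99.4 and 99.1 in the 4 knockout libraries. NFIX, a transcription factor, and SAMD1, a CpG island-binding protein, were also called in all 4 knockout libraries. MT2A, a metallothionein, was called in 3 of them. The region of KLC1, a kinesin light chain, on chromosome 14 was called in both SETD2KO-2 libraries and in neither of SETD2KO-1. Of the 12 regions, 7 were called in both SETD2KO-1 libraries, and 1, in PRKCSH, had a WT peak within 500 bp.

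Over the whole body of a gene, differences that left no peak in 1 line were rarer. Of 11765 protein-coding genes with a merged region, 2271 (19.3%) held a WT-only region, 1130 (9.6%) a SETD2KO-1R-only region and 242 both. Only 407 genes (3.46%) had a peak in both WT libraries and none in SETD2KO-1R, and 274 (2.33%) the opposite. As with the regions, the direction of this excess depended on the lists. It turned with the 25710 highest-scoring peaks of each list, to 332 WT and 381 SETD2KO-1R genes, and with peaks of at least 288 bp, to 257 and 487. Without SETD2KO-1R replicate 1, where 1 library stands for its line, the counts were 1280 and 495. A peak in all 4 libraries was found in 7337 genes. The lists carry no strand, so a peak where genes overlap counted for each of them. Of the 407 WT genes, 76 (18.7%) had no peak in any knockout library and 108 (26.5%) had a peak in all 4. Of the 274 SETD2KO-1R genes, 76 (27.7%) had none in the knockouts and 47 (17.2%) had a peak in all 4. The same shares were not taken for genes with as few peaks that differ otherwise, so this division is a description.

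NCAM1, the neural cell adhesion molecule, had the most WT peaks among the genes with none in SETD2KO-1R. It held 15 and 17 peaks in the WT libraries, 0 and 1 in SETD2KO-1, 1 and 2 in SETD2KO-2, and 0 and 0 in SETD2KO-1R. All 3 clonal lines were thus far under WT, and 10 of its 19 merged regions were members. The strongest, on chromosome 11 from 113275159 to 113275704, ranked at 99.6 and 99.6 in WT, and the nearest SETD2KO-1R peak lay 1036078 bp away.

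ANPEP, the brush border aminopeptidase N, held 3 and 6 peaks in WT and none in any of the 6 clonal libraries, while all 8 RPTEC libraries had a peak there. NES, encoding the intermediate filament nestin, held 3 and 4 in WT and none in the clones, and COL5A1, a collagen V chain, held 2 and 3 and none. CELSR3, a cadherin, ICAM5, an adhesion molecule, and SLITRK4, a synaptic membrane protein, each had 5 peaks over the WT libraries and none in the clones. In these genes the state of SETD2KO-1R was that of both knockout clones.

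Other WT genes lost their peaks in SETD2KO-1R alone. AUTS2, a neurodevelopmental nuclear factor, held 3 and 10 peaks in WT, 2 and 2 in SETD2KO-1, 2 and 5 in SETD2KO-2 and none in SETD2KO-1R. NTM, the adhesion molecule neurotrimin, held 2 and 11, then 4 and 7, then 7 and 4, then none. EVL, an actin regulator of the Ena/VASP family, held 4 and 5 in WT, 2 to 3 in each knockout library and none in SETD2KO-1R, and P2RY6, a nucleotide receptor, 3 and 5, 1 to 8 and none. The knockout libraries overlapped with WT in AUTS2, NTM and P2RY6 and lay below it in EVL, and the SETD2KO-1R libraries lay below all 6 others in each. TMEM178B, with 11 and 13 peaks in WT, had 2 and 2 in SETD2KO-1 and none in SETD2KO-2 or SETD2KO-1R.

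Some genes with peaks in SETD2KO-1R but not WT also had peaks in all 4 knockout libraries, some had none there, and the others had peaks in 1 to 3 of them. DSP encodes desmoplakin, which ties intermediate filaments to desmosomes. It held 5 and 4 peaks in SETD2KO-1R, 5 and 3 in SETD2KO-1, 4 and 4 in SETD2KO-2 and none in WT. DSG2, the desmosomal cadherin desmoglein 2, held 2 and 2 in SETD2KO-1R, 2 and 2 in SETD2KO-1, 6 and 2 in SETD2KO-2 and none in WT. POU3F3 held 4 and 4 in SETD2KO-1R, 2 to 4 in each knockout library and none in WT. SORCS2, a receptor of the sortilin family, held 7 and 4, then 4 to 8, and none, and C13orf46 held 8 and 6, then 1 to 3, and none. These genes separated all 6 clonal libraries from WT.

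CD96, an immunoglobulin-family receptor of lymphocytes, held 2 and 5 peaks in SETD2KO-1R and none in WT or the 4 knockout libraries. FAM78B held 4 and 2, NRG2 (a growth factor of the neuregulin family) 5 and 1, KRT79 (a keratin) 4 and 1 and AHRR (the repressor of the aryl hydrocarbon receptor) 2 and 2, each with none in the other 6 libraries of 786-O. In RPTEC, CD96 and NRG2 had a peak in all 8 libraries, AHRR in 4, FAM78B in 2 and KRT79 in 0. Of 5 leukocyte markers, 4 held no peak in any of the 8 libraries, PTPRC and CD3E among them, and CD68 held 1 in each. With the upper 50% of each list by score, 10 of the 13 WT genes and 8 of the 14 SETD2KO-1R genes with the most peaks kept their status, and ANPEP, AUTS2, FAM78B and NRG2 were among those that did not. NES, ICAM5, SLITRK4, DSG2, KRT79 and AHRR were named after their values were seen.

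**Figure D3:**
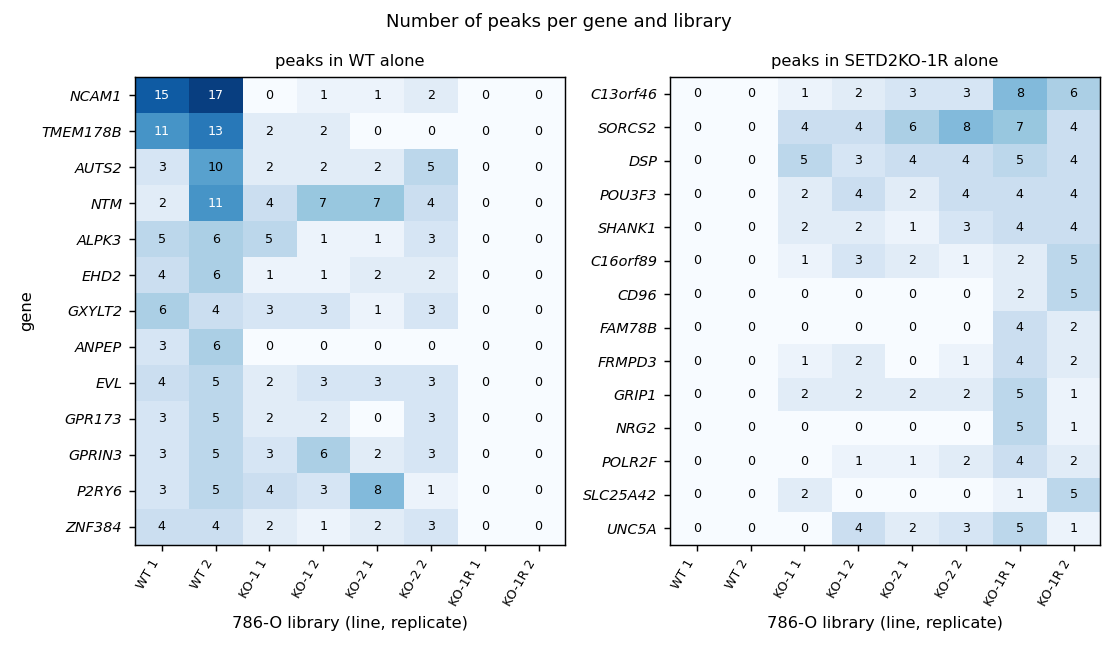
Each cell gives the number of peaks of a gene (rows) in a library of 786-O (columns), for the genes with the most peaks in WT and none in SETD2KO-1R (left) and the opposite (right), with ties at the last place kept and KO standing for SETD2KO. ANPEP had no peak outside WT, while DSP had 3 to 5 in every knockout and SETD2KO-1R library.

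Most genes with a member held only 1, namely 1784 of the 2271 with a WT-only region and 1004 of the 1130 with a SETD2KO-1R-only region. A few held many. FRMD4A, a scaffold of cell polarity, held 11 WT-only regions of 55, with 36 and 40 peaks in WT, 14 to 24 in the knockout libraries and 15 and 14 in SETD2KO-1R. EHBP1, an endocytic adaptor, held 8, and ADAM12, a metalloprotease, GPC6, a glypican, ZMIZ1 and KIAA1328 held 7 each. ADAM12 had 15 and 17 peaks in WT, 2 to 8 in the knockout libraries and 3 and 3 in SETD2KO-1R. In the opposite direction SHANK2, a scaffold of synapses and epithelia, stood out, with 8 SETD2KO-1R-only regions. It held 45 and 39 peaks in SETD2KO-1R, 13 and 18 in WT, 9 and 14 in SETD2KO-1 and 12 and 8 in SETD2KO-2, and of the 8 regions the lowest mean rank was 20.2 and the highest 44.6. KIRREL3, an adhesion molecule on the same chromosome, held 20 and 12 in SETD2KO-1R, 9 and 7 in WT and 1 to 3 in the knockouts. DOCK2, an exchange factor for Rac, held 12 and 13 in SETD2KO-1R and 2 and 2 in WT, with 1 to 6 in the knockouts. In all, 50 genes held 4 or more WT-only regions and 8 held 4 or more SETD2KO-1R-only regions, among them also ZDHHC11, RTEL1, DSP and ADPRHL1.

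The clustered protocadherins on chromosome 5, cell surface molecules whose genes lie in tandem, were noticed after the values were seen. Their locus, from 140786140 to 141512975, held 41 merged regions, of which 13 were SETD2KO-1R-only and 0 were WT-only. Over all merged regions the shares were 2.71% and 5.41%. Of the 41, the WT libraries called 11 and 8, the SETD2KO-1R libraries 33 and 27 and the 4 knockout libraries 12 to 19. These regions came from the WT and SETD2KO-1R lists alone, so a peak seen only in a knockout could not count and the order of SETD2KO-1R and the knockouts cannot be read from them. All peaks of a library in the locus numbered 33 and 28 in SETD2KO-1R, 29 and 17 in SETD2KO-1, 19 and 27 in SETD2KO-2 and 12 and 10 in WT. The SETD2KO-1R libraries thus overlapped with SETD2KO-1, and WT lay below all 6 clonal libraries. PCDHB genes carried 10 of the 13 members. PCDHB16 held 2 and 2 peaks in SETD2KO-1R and none in the other 6 libraries, and PCDHB8 held 3 and 1 and none. In RPTEC, none of whose lists defined these regions, the knockout libraries called 17 to 23 of the 41, the SETD2KO-1R libraries 8 and 9 and the WT libraries 6 and 5. Reads can be shared between such near-identical genes, so the assignment to a single PCDHB gene is uncertain.

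By chromosome, SETD2KO-1R-only regions made up 33.4% of all members. Their share was highest on chromosomes 14 (71 SETD2KO-1R-only and 44 WT-only), 21 (36 and 29), 5 (126 and 108) and 16 (97 and 90), and lowest on 7 (48 and 257), 1 (100 and 417) and 12 (43 and 162). Chromosome 14 had more SETD2KO-1R-only than WT-only regions in 10 of its 19 windows of 5 Mb, chromosome 16 in 9 of 18 and chromosome 7 in 0 of 32, against 112 of 591 on the autosomes and X.

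The counts behind these shares moved with the lists, as the whole ratio did, in alternatives chosen after the values were seen. With peaks of at least 288 bp SETD2KO-1R-only regions made up 56.8% of members and outnumbered WT-only regions on 15 of 23 chromosomes and in 275 of 591 windows, against 4 chromosomes in the main counts. Without replicate 2 of SETD2KO-1R they did so on all 23, and without either WT library on 0. Leaving out a library raises the count of its own line by construction. The end points of the order were less mobile. Chromosome 14 had the highest and chromosome 7 the lowest share of SETD2KO-1R-only regions with the minimum length (83.2% and 32.7%), with every list cut to 25710 peaks (73.5% and 22.4%) and with any of the 4 libraries left out (33.4 to 82.8% and 9.54 to 50.3%).

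**Figure D4:**
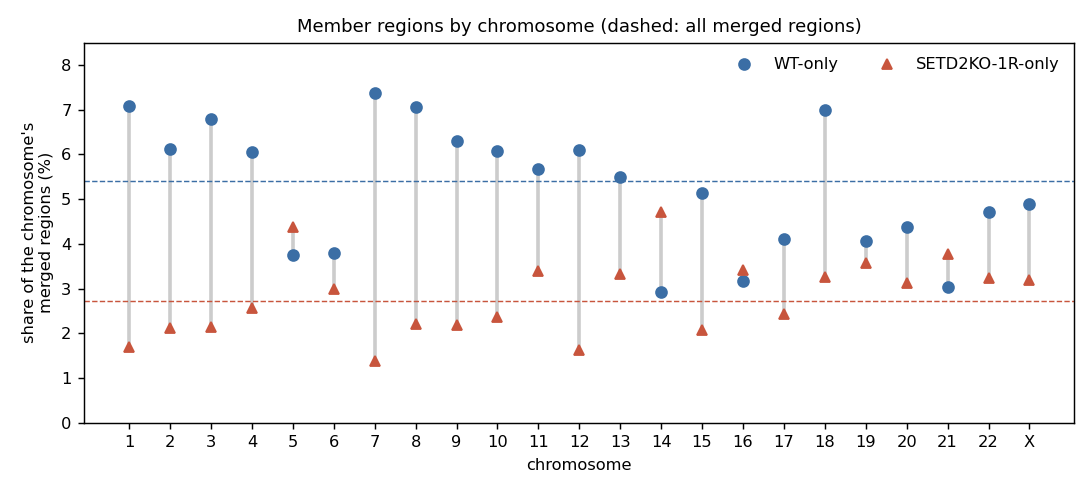
The vertical axis gives the share of a chromosome's merged regions that were WT-only (circles) or SETD2KO-1R-only (triangles), and dashed lines give the shares over all regions, 5.41% and 2.71%. Triangles lie above circles on chromosomes 5, 14, 16 and 21, and with peaks of at least 288 bp on 15 of the 23 chromosomes.

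The share of a library's peaks that fell on each chromosome does not rest on the ratio of the 2 kinds of member. Both SETD2KO-1R libraries lay above both WT libraries on 12 of 23 chromosomes (52.2%) and below on 10 (43.5%), with chromosome Y left out and the shares of a library adding up to a fixed total. On 9 of the 12 the SETD2KO-1R libraries were also above all 4 knockout libraries. Chromosome 14 was the clearest of these, with 2.87% and 2.98% of peaks in SETD2KO-1R, 2.18% and 2.18% in WT, 2.09% and 2.25% in SETD2KO-1 and 2.10% and 2.26% in SETD2KO-2. The ratio to WT was 1.34. Chromosome 19 held 8.42% and 8.56% in SETD2KO-1R and 6.62 to 7.45% in the other 6 libraries, and chromosome 5 held 5.08% and 5.26% against 4.39 to 4.87%. Chromosome 3, which carries SETD2, was lower in SETD2KO-1R, at 4.38% and 4.29% against 4.81 to 5.39%.

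On 3 of the 12, chromosomes 13, 16 and 22, all 4 knockout libraries were also above WT. Chromosome 16 held 4.58% and 4.37% of peaks in WT and 5.31 to 5.84% in the 6 clonal libraries. Chromosome 7 ran the other way, with 6.17% and 6.20% in WT and 5.21 to 5.53% in the clonal libraries. The members' own calls in the parental clone did not divide along these lines. Both SETD2KO-1 libraries called 25.6% of the SETD2KO-1R-only regions over all chromosomes. Among those where the knockouts were also above WT, the share was 30.9% on chromosome 16 and 29.1% on 22 but 13.2% on 13, the lowest of all. Among the others it was 16.9% on chromosome 14 and 18.3% on 5 but 27.6% on 19. Copy number was not measured here, and its part in these shares was not tested.

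**Figure D5:**
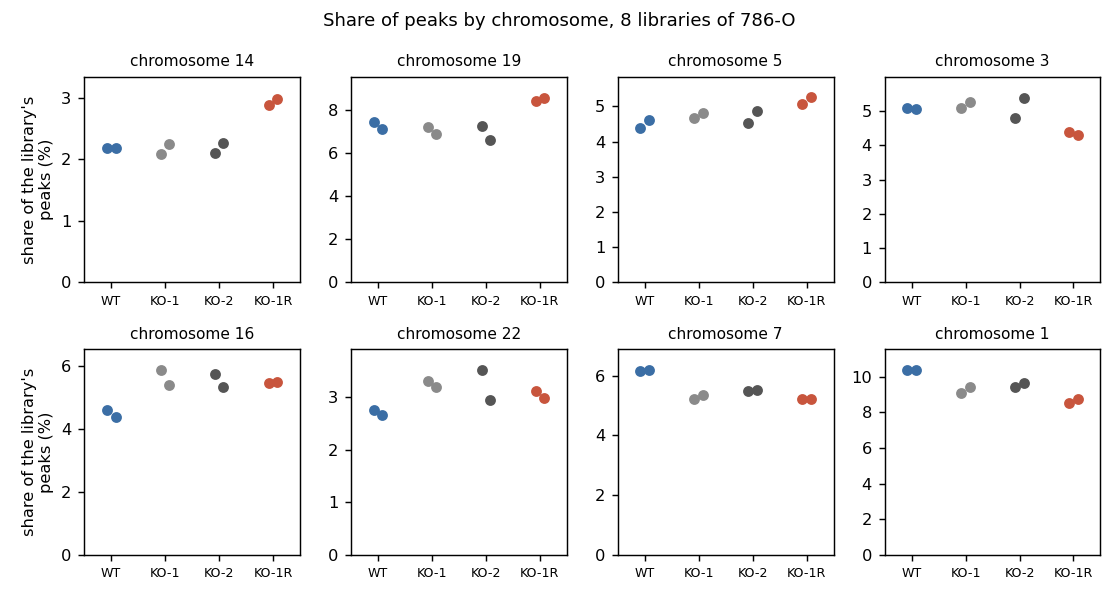
Each point is the share of 1 library's peaks that lay on the chromosome named above the panel, for the 8 libraries of 786-O by line (KO for SETD2KO), on axes that start at 0. The SETD2KO-1R points stand apart from all others on chromosomes 14, 19, 5 and 3, while the WT points stand apart on 16, 22, 7 and 1. On 7 and 1 the SETD2KO-1R points are also the lowest.

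Genes on chromosome 14 leaned the same way. Of 380 genes with a region there, 23 (6.05%) had peaks in SETD2KO-1R alone and 9 (2.37%) in WT alone, against 2.33% and 3.46% over all chromosomes. LTBP2, an extracellular matrix protein, held 1 and 4 peaks in SETD2KO-1R, RALGAPA1 2 and 1 and LGALS3, the lectin galectin-3, 1 and 1. All 3 had none in WT and at most 1 in a knockout library, and all 3 were named after their values were seen. On chromosome 7 the counts were 3 genes for SETD2KO-1R and 32 for WT.

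Among windows of 5 Mb, that on chromosome 19 from 20 to 25 Mb held 14 SETD2KO-1R-only and 2 WT-only regions. Its genes encode zinc finger proteins, among them ZNF626, ZNF43, ZNF257, ZNF730 and ZNF90. Both SETD2KO-1 libraries called 11 of the 14, and the window held 48 and 49 peaks in WT, 86 and 74 in SETD2KO-1R and 73 to 96 in the knockouts, so WT lay below all 6 clonal libraries. ZNF626 held 1 and 1 peaks in WT, 5 and 6 in SETD2KO-1R and 4 to 7 in the knockouts. Zinc finger genes of a cluster are near copies, and their reads may be shared. A window on chromosome 10 from 130 to 135 Mb held 10 and 2, with PAOX (a polyamine oxidase) at 2 and 2 peaks in SETD2KO-1R and none in WT. Another, on chromosome 21 from 5 to 10 Mb, held 9 and 1. In both of these windows the peak numbers of SETD2KO-1R and WT overlapped. They were 62 and 44 against 43 and 55 on chromosome 10, and 88 and 69 against 55 and 85 on chromosome 21.

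WT-only regions gathered on chromosome 7 from 0 to 5 Mb (26 WT-only and 3 SETD2KO-1R-only), on chromosome 1 from 40 to 45 Mb (24 and 1) and on chromosome 3 from 45 to 50 Mb (24 and 1). The window on chromosome 7 held MAD1L1, a spindle checkpoint gene, with 4 WT-only regions. That on chromosome 3 spans SETD2 itself, and its WT-only regions lay among others in RHOA (a small GTPase), MAP4 (a microtubule protein), COL7A1 (collagen VII) and CDC25A (a cell cycle phosphatase). It held 157 and 176 peaks in WT, 114 and 134 in SETD2KO-1, 152 and 101 in SETD2KO-2 and 106 and 103 in SETD2KO-1R. Of its 24 WT-only regions, 13 were called in neither SETD2KO-1 library and 5 in both.

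SETD2 held no member. It had 8 and 10 peaks in WT, 5 and 10 in SETD2KO-1, 5 and 4 in SETD2KO-2 and 7 and 9 in SETD2KO-1R. Peaks along the gene remain in knockout clones that still transcribe it and do not check the genotype. METTL3 had 1 and 0 peaks in WT and none in SETD2KO-1R, and none of its merged regions was a member. Of 11 genes for m6A methyltransferases and the writer complex with a region, 1 (9.09%) held a WT-only region and 1 (9.09%) a SETD2KO-1R-only region, beside 19.3% and 9.6% over all genes with a region. The first was ZCCHC4, a methyltransferase of ribosomal RNA outside the METTL3 and METTL14 complex, and the second VIRMA, a subunit of that complex. Of 15 readers and erasers, 3 held a WT-only region and 1 (6.67%) a SETD2KO-1R-only region. YTHDC1, a nuclear reader, held 2 WT-only regions, and ALKBH5, a demethylase, and IGF2BP3, a reader, 1 each. HNRNPC held 1 SETD2KO-1R-only region.

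Chromatin genes were mixed. Of 20 genes for H3K36 methylation and its readers, 6 held a WT-only and 5 a SETD2KO-1R-only region, beside 19.3% and 9.6% of all genes with a region. NSD2, NSD3 and ASH1L, which methylate the same residue, each held 1 SETD2KO-1R-only region, while SETD5 and SMYD2 each held 1 WT-only region. The other holders were KDM2A and KDM4B for SETD2KO-1R-only regions, and KDM2B, KDM4A, KDM4B and MSH6 for WT-only regions. NSD2 had 11 and 13 peaks in WT and 14 and 15 in SETD2KO-1R, so the gene as a whole differed little. Of 16 genes for enhancer acetylation and H3K27 or H3K4 enzymes, 5 (31.2%) held a WT-only region (EP300, KDM6A, KMT2C, KMT2D and HDAC1) and 1 (6.25%) a SETD2KO-1R-only region (KMT2D). Longer genes hold more regions, and a share over a short list is a description.

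The metabolic lists stand beside shares over all genes with a region of 19.3% for WT-only and 9.6% for SETD2KO-1R-only regions. Of 17 fatty acid oxidation genes with a region, 3 (17.6%) held a WT-only region (ACADVL, ACADSB and ECI1) and 0 a SETD2KO-1R-only region, the first near the share over all genes. ACADVL, the very long-chain acyl-CoA dehydrogenase, held 4 and 4 peaks in WT, 5 and 4 in SETD2KO-1, 3 and 1 in SETD2KO-2 and 3 and 0 in SETD2KO-1R. Of 25 genes of the TCA cycle and electron transport, 2 held a WT-only region, among them NDUFV1, a subunit of respiratory complex I. COX4I1, a subunit of cytochrome c oxidase, had peaks in both WT libraries and none in SETD2KO-1R, and SDHC, a subunit of succinate dehydrogenase, the opposite, with 1 and 1. Of 23 hypoxia genes with a region, 5 (21.7%, also near that share) held a WT-only region (EPAS1, CA12, PFKFB3, KDM3A and PLIN2) and ADM a SETD2KO-1R-only one. EPAS1, which encodes HIF2α, held 6 and 6 peaks in WT, 1 to 3 in the knockout libraries and 2 and 3 in SETD2KO-1R, so the rescued line was within the range of the knockouts and below WT.

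Of 26 genes of the epithelial-mesenchymal transition and extracellular matrix, 8 (30.8%) held a WT-only and 7 (26.9%) a SETD2KO-1R-only region, beside 19.3% and 9.6% over all genes with a region. SNAI1, a transcriptional repressor of the transition, held 1 and 1 peaks in WT and none in SETD2KO-1R, while SERPINH1, a collagen chaperone, held 2 SETD2KO-1R-only regions with 2 and 2 peaks in WT, 4 and 3 in SETD2KO-1R and 3 to 5 in the knockouts. Of 27 genes of the Wnt, Notch and TGF-β pathways, 7 (25.9%) held a WT-only region and 5 (18.5%) a SETD2KO-1R-only region. NOTCH2 alone held 5 WT-only regions, with 8 and 8 peaks in WT, 4 to 10 in the knockouts and 2 and 4 in SETD2KO-1R. TGFBR2, the type II receptor, and WNT5A, a ligand, had peaks in both WT libraries and none in SETD2KO-1R. AXIN1, APC and TCF7L2 of the Wnt pathway each held 1 SETD2KO-1R-only region.

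In the DNA repair list 8 of 23 genes held a WT-only region (34.8%) and 3 a SETD2KO-1R-only region (13.0%), beside 19.3% and 9.6% over all genes with a region, which also stand behind the lists that follow. RRM2, the small subunit of ribonucleotide reductase, held 2 WT-only regions with 19 and 24 peaks in WT and 14 and 11 in SETD2KO-1R. Of 31 HOX genes with a region, 7 (22.6%) held a WT-only region and 1 (3.23%), HOXC4, a SETD2KO-1R-only region. The interferon list held no WT-only region in 16 genes, and 2 genes, among them STAT2, held SETD2KO-1R-only ones. Of 10 kidney transcription factors with a region, 3 held a WT-only region (PAX2, PAX8 and PPARGC1A) and 2 a SETD2KO-1R-only region (PAX2 and WT1). PPARGC1A, a coactivator of mitochondrial genes, held 3 and 2 peaks in WT, 5 and 3 in SETD2KO-1, 2 and 2 in SETD2KO-2 and none in SETD2KO-1R. Of 19 tumour suppressor and mTOR genes 4 (21.1%) held a WT-only region (BAP1, KDM6A, MTOR and ARID1A) and TSC2 a SETD2KO-1R-only one. Of 17 solute carriers of the tubule, 2 (11.8%) held a WT-only region (SLC4A4 and SLC20A1) and SLC22A5 a SETD2KO-1R-only one. SLC4A4, the sodium bicarbonate cotransporter, held 3 WT-only regions, with 13 and 10 peaks in WT, 17 to 20 in the knockouts and 7 and 0 in SETD2KO-1R. Of 13 genes that the study names for an m6A change in 786-O, chosen on these libraries, 3 held a WT-only region (HM13, ECI1 and ACADVL) and 1, SERPINH1, a SETD2KO-1R-only one.

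Outside protein-coding genes, long noncoding RNAs carried several members. LINC01768 on chromosome 1 and SOX1-OT on chromosome 13 each held 3 SETD2KO-1R-only regions, with 4 and 3 and with 5 and 4 peaks in SETD2KO-1R and none in the other 6 libraries. LINC02768 also held 3, with 5 and 6 peaks in SETD2KO-1R, 0 and 2 in SETD2KO-1 and none elsewhere. LOC102723769 on chromosome 22 held 3, with 5 and 5 peaks in SETD2KO-1R, 4 to 10 in the knockouts and none in WT. LINC01411 on chromosome 5 held 5 WT-only regions, with 17 and 32 peaks in WT, 15 to 23 in the knockouts and 9 and 9 in SETD2KO-1R. Sequences outside the main chromosomes held 144 merged regions, 27 of them SETD2KO-1R-only and 6 WT-only, beside 2.71% and 5.41% of all merged regions. Peaks there numbered 45 and 59 in WT, 100 and 81 in SETD2KO-1R and 101 to 129 in the knockouts, so WT lay below all clonal libraries. The genes of this paragraph were named after their values were seen.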

How the data were processed

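MeRIP-seq was done on 786-O and RPTEC lines with 2 immunoprecipitation libraries per line. Per the labels and methods, the authors added E. coli RNA as a spike-in, aligned with STAR to hg38, counted with HTSeq and called peaks with MACS2 in each library over its input. Each deposited list gives, per peak, a position, the summit and a score from the authors' peak caller. The remaining value columns hold 0. The input libraries were not analysed here.

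Peaks of the 4 lists sharing at least 1 bp were merged, and a library called a region if a peak of it overlapped by at least 1 bp. Scores were converted to percentile ranks within a list. Genes came from the RefSeq gene table (GRCh38.p14, 20033 protein-coding genes, 15842 with a strand), and start windows from RefSeq promoters. Python 3.11.15 with numpy 2.4.6, pandas 2.3.3 and scipy 1.17.1 was used, and matplotlib 3.10.9 for plots. The scripts were tested on simulated data.

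Named genes were SETD2, METTL3 and list genes holding a member, the 12 regions per direction with the highest mean rank, the 10 genes per direction with the most peaks in 1 line and none in the other (ties kept), the genes of the 5 Mb windows richest in members of 1 direction, and genes with 4 or more members of 1 direction. Members and lists were chosen with earlier results of these data known. Depth is unknown. Alternatives changed the peaks used, the merging, the call of a region and the libraries. Some list genes are not reported here.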

Additional observations from a re-analysis of the deposited data

Results flagged for a closer look

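The measures looked at were the 4 of location, the number of peaks and the share of peaks on each of 23 chromosomes. In 7 of them both SETD2KO-1R libraries of 786-O moved one way from both WT libraries while both in RPTEC moved the opposite way. The difference between the cell lines was not tested. The share of peaks in a gene of another kind alone was 0.971 percentage points higher in 786-O SETD2KO-1R than in WT, and the same difference was -0.198 in RPTEC. On chromosome 14 it was 0.749 in 786-O and -0.0612 in RPTEC, and on chromosome 17 it was 0.439 and -0.327. On chromosome 3 it was -0.729 and 0.116, and on chromosome 4 it was -0.0987 and 0.389. On chromosomes 13 and 18 it was 0.0259 and 0.0693 in 786-O and -0.153 and -0.110 in RPTEC.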

How the results depend on the processing

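The counts of regions moved most. WT-only regions numbered 1701 with the upper 50% of each list by score, 2163 when each list was cut to the size of the smallest and 1820 with a minimum peak length of 288 bp, and 4637 to 13193 when 1 library was left out. SETD2KO-1R-only regions numbered 862 with the upper 50% and 2803 to 8723 with 1 library left out. Fewer libraries per line raise both counts by construction, and most that of the line with 1 library, so their ratio moves too. The ratio of WT-only to SETD2KO-1R-only regions was 1.22 with the same number of peaks, 0.759 with the minimum length and 0.532 to 4.71 with 1 library left out, 0.532 being without SETD2KO-1R replicate 2. The share of SETD2KO-1R-only regions called in both SETD2KO-1 libraries was 22.3% with the same number of peaks, 22.1% where peaks had to cover 50% of a region (chosen after seeing the data) and 9.1 to 38.2% with 1 library left out. The share of WT-only regions called in neither was 39.9% with that coverage and 21.8 to 59.0% with 1 left out. The RPTEC difference was -6.99 points with the upper 50% (p = 0.0703, exact sign-flip permutation test) and ran from -28.5 to 14.7 with 1 library left out, turning to 14.7 without WT replicate 1 and 12.3 without WT replicate 2. With the minimum length, added after seeing the data, one-sided genes numbered 257 (WT) and 487 (SETD2KO-1R), and their ratio turned to 0.528, as it did to 0.871 with the same number of peaks. One-sided genes numbered 690 to 1280 (WT) and 495 to 673 (SETD2KO-1R) with 1 library left out. The difference near 3′ ends was 0.0067 points by summit and -0.0385 to 0.0116 with 1 library left out, 0.0116 being without SETD2KO-1R replicate 2. The log2 difference in peaks was 0.14 with the minimum length and -0.40 to -0.08 with 1 library left out. The minimum length took peaks from the WT lists and none from the SETD2KO-1R lists, so a shift toward SETD2KO-1R was built in. The cause of these shifts was not tested. Replicate numbers only name libraries: deviations of replicate 1 in both lines correlated at -0.0341 over 60211 regions, and with the replicate block the difference in peaks within protein-coding genes was -3.29 points as before, and the exact p was 0.5 for 3 location measures and 1 for 3′ ends and for peaks.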
